A study of Mus musculus with 20 samples.

Results

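The genes described here set how much glucose the liver makes and how much it burns, and they were followed in mice whose epididymal visceral adipose tissue (VAT, the fat pads beside the testes) had been taken out. The set was picked by symbol and holds 8 genes of the 40440 distinct entries in the count table: Pck1, G6pc, Fbp1, Pcx, Ppargc1a, Gckr, Pklr and Slc2a2. The VAT removed group and the sham group were both male C57BL/6J mice, a standard inbred strain, operated on at 8 to 9 months of age. VAT removed mice lost the epididymal pads through an abdominal incision, and sham mice had the incision without the removal. Both groups ate regular chow before surgery and a high-fat diet after it, so every comparison is made within fat-fed animals and no chow-fed group was analysed here. Liver and subcutaneous adipose tissue (SAT) were each sequenced as ribosome-depleted total RNA in 5 libraries per group, 20 libraries in all, and VAT itself was not analysed here. The labels do not say whether the mice were fed or fasted, or at what hour they were killed. They also do not state that each library is 1 mouse, so p-values measure the spread between these libraries.

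Total counts lay between 20307159 and 43618452 per library. VAT removed liver 3 was the shallowest. Each library carried the marker of its labelled tissue: in CPM (counts scaled to a common library total, here without further factors), albumin mRNA (Alb) was 31707 or more in every liver and 31.2 or less in every SAT library, and adiponectin mRNA (Adipoq) was 1105 or more in every SAT library and 0.359 or less in every liver. Marker sums and all later CPM values are also scaled by TMM factors (edgeR's correction for library composition), computed within each tissue. The summed level of 3 kidney marker genes, the kidney being another organ that makes glucose, was at most 0.317 CPM in any liver library. Libraries that stood apart were sham SAT 3 and 4, with lymphocyte markers summed at 352 and 347 CPM against at most 6.92 CPM in the other 8 SAT libraries, and VAT removed SAT 2, with skeletal muscle markers summed at 22917 CPM. Muscle markers also summed to 1856 CPM in sham SAT 2, 960 CPM in VAT removed SAT 1 and 246 CPM in VAT removed SAT 3. In the remaining SAT libraries they reached at most 50.9 CPM. In liver, the hepatocyte marker sum was lowest in VAT removed liver 3 (45824 CPM) and sham liver 5 (48819.7 CPM), and ran from 52223 to 66205 CPM in the other 8 livers. Markers of other liver cells, 5 genes a list, were summed too. Kupffer cell (liver macrophage) markers reached 517 CPM in VAT removed liver 1 and ran from 147 to 258 CPM in the other VAT removed livers. In sham livers they ran from 101 to 247 CPM. Lymphocyte markers ran from 3.69 to 11.1 and 2.4 to 7.11 CPM, endothelial ones from 238 to 326 and 212 to 274 CPM, stellate cell ones from 489.6 to 1034 and 525 to 794 CPM and bile duct ones from 31.9 to 241 and 49 to 103 CPM, VAT removed livers being given before sham livers in each pair. Genes higher and lower after VAT removal numbered 5 and 0 for Kupffer cells, 0 and 5 for hepatocytes and 3 and 2 for lymphocytes. They numbered 4 and 1 for each of the endothelial, stellate and bile duct lists. In edgeR 0 of these were called, as were 0% of all genes tested in liver. An unadjusted edgeR p under 0.05, met by 9.9% of all genes, was reached by 3 of the 5 lymphocyte genes, all higher. In each of the Kupffer, endothelial and stellate lists 1 gene reached it, also higher, and in the hepatocyte and bile duct lists 0 did. Median log2 differences were 1.18 for the lymphocyte list and 1.05 for the Kupffer list. The part of these cells in the levels below was not tested.

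The liver holds blood glucose up between meals by making glucose from lactate, glycerol and amino acids, and takes glucose up and breaks it down after a meal. Insulin represses the genes of glucose output and glucagon raises them through cyclic AMP, while glucose itself, acting through the factor ChREBP, raises genes of glycolysis and fat synthesis. In insulin-resistant, fat-fed rodents the restraint of glucose output by insulin is weakened, which is why these genes are usually read beside measurements of insulin action. In fat cells Pck1 and Pcx have another use, since they supply glycerol 3-phosphate and citrate for building triglyceride.

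Promoters of Pck1, G6pc, Pklr and Ppargc1a are printed because the first 3 carry the responses to cyclic AMP, insulin and glucose just named and varied most between livers, and Ppargc1a encodes the coactivator that acts on the output genes. They come from RefSeq (GRCm38.p6), on the strand of the gene, with the stretch before the RefSeq start cut where GENCODE M21 places an exon. All 8 genes had an entry, Pcx and Pklr with 2 starts each. Capitals mark a cyclic AMP half-site (ACGTCA), an insulin response core (TGTTTTG) or a carbohydrate response element (the consensus bound by ChREBP and its partner), each searched on both strands in the 250 bases before the start.
Pck1, chr2:173152823-173153047: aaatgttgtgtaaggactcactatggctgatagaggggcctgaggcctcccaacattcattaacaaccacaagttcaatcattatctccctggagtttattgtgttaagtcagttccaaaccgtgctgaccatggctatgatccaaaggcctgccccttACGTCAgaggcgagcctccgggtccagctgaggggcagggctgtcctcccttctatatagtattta
Ppargc1a, chr5:51567727-51567975: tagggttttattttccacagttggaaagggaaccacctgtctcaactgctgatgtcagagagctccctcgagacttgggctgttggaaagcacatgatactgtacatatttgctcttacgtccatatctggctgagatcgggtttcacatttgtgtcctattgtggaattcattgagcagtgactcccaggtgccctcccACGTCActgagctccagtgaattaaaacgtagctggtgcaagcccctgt
G6pc, chr11:101367466-101367560: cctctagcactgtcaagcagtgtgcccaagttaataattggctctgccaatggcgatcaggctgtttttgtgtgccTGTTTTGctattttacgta
Pklr, downstream start, chr3:89136373-89136571: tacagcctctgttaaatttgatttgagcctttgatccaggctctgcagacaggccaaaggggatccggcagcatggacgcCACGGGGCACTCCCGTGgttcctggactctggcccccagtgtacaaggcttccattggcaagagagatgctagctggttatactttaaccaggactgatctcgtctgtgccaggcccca

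The half-site lies 91 to 86 bases before the RefSeq start of Pck1 and 50 to 45 before that of Ppargc1a, and 6.47% of the 32851 RefSeq mouse windows of this length hold one. The insulin response core lies 174 to 168 bases before the start of G6pc, was also found 83 to 77 bases before that of Gckr, and is held by 5.56% of windows. The carbohydrate response element lies 170 to 154 bases before the downstream start of Pklr, the one used in liver, and its consensus occurs in 13 windows, or 0.0396%. The palindromic form TGACGTCA (1.55% of windows; it contains the half-site) and the forkhead core TGTTTAC (3.17%) were in none of the members' windows. A TATA core (TATAAA, in 12.4% of windows) lies 29 to 24 bases before the start of G6pc and 31 to 26 before the downstream start of Pklr, beyond the stretches printed. These matches are letters in a window, and no binding was measured here.

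Per kilobase of exon, Pck1 was the highest of the 8 genes in liver and Ppargc1a the lowest. Pck1 averaged 906 ± 330.3 RPKM (CPM divided by the length of all GENCODE M21 exons in kilobases; SD, n = 5) in VAT removed livers and 773 ± 186 RPKM in sham livers. Fbp1 followed at 546 ± 73.4 and 508 ± 59.6 RPKM, Pcx at 222 ± 19.5 and 216 ± 29.9, Pklr at 144 ± 58.3 and 122 ± 37.3, and G6pc at 98.8 ± 34.5 and 129 ± 54.1, in VAT removed and sham livers in that order. Slc2a2 and Gckr averaged 61.2 ± 6.6 and 44.8 ± 1.51 RPKM in VAT removed livers, against 62.4 ± 9.81 and 43.6 ± 7.47 RPKM in sham livers. Ppargc1a, a regulator rather than an enzyme, averaged 4.09 ± 0.724 RPKM in VAT removed livers and 3.36 ± 0.938 RPKM in sham livers. Pklr and G6pc did not hold a fixed order, with Pklr above G6pc in 5 of 10 livers, while every other gene was above the next one down in at least 9 of 10. Rarely used exons lengthen the divisor, so these levels may understate the main transcript's.

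The liver comparison asks whether removing VAT changes the expression of genes that govern hepatic glucose output in fat-fed mice. None of the 8 genes differed between VAT removed and sham livers beyond the spread between libraries. All 8 passed the filter on low counts, 0 of 8 were called in edgeR over all 17078 genes tested (adjusted p between 0.656 and 0.962), 0 of 8 had an unadjusted p under 0.05, and DESeq2 also called 0 of 8. The same rules called 0% of all genes tested in edgeR, 9.9% at an unadjusted p under 0.05 (4.68% higher, 5.22% lower), and 1.31% in DESeq2. The values of VAT removed and sham livers overlapped for all 8 genes, where 2.44% of all genes tested did not overlap. Log2 differences (VAT removed minus sham) were positive for 6 genes and negative for 2, with a median of 0.072 beside 0.012 over all genes. Leaving out VAT removed liver 3 took the count over all genes to 53, with 0 of the 8 among them. In whole tissue, fewer cells of a type and less RNA per cell cannot be told apart.

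**Figure D1:**
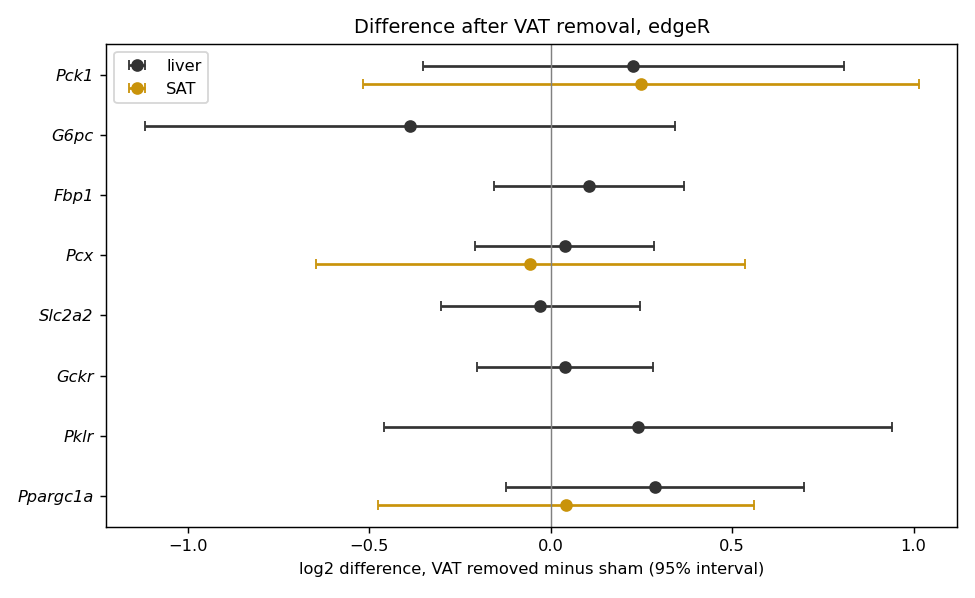
Log2 difference (x axis, VAT removed minus sham) of each gene with its 95% interval from edgeR, in liver (black) and, for the 3 genes tested there, in SAT (yellow). Every interval includes 0, and in liver those of G6pc, Pklr and Pck1 are the widest.

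Pck1 (chromosome 2, 173153048 to 173159273, plus strand) encodes cytosolic phosphoenolpyruvate carboxykinase, which turns oxaloacetate into phosphoenolpyruvate at the entry to gluconeogenesis. VAT removed livers 1 to 5 had 2493, 1574, 4306, 4089.5 and 3064 CPM, against 1918, 2712, 2085, 3250.3 and 3291 CPM in sham livers. The highest pair, VAT removed livers 3 and 4, lay above every sham liver, and the lowest of all 10 was VAT removed liver 2. The means were 3105 ± 1132 CPM in VAT removed and 2651 ± 638 CPM in sham livers (SD, n = 5 each); the log2 difference was 0.23 ± 0.26 (SE; 95% interval -0.35 to 0.81, edgeR adjusted p = 0.826). That difference was 0.080 without VAT removed liver 3 and 0.11 without VAT removed liver 4, but 0.40 without VAT removed liver 2. It was 0.13 without sham liver 1 and 0.15 without sham liver 3.

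G6pc (chromosome 11, 101367561 to 101377903, plus strand) encodes the catalytic subunit of glucose-6-phosphatase, which releases free glucose as the last step of output. It was at 266, 276, 328, 214 and 108 CPM in VAT removed livers 1 to 5, against 482, 423, 242, 220.5 and 194 CPM in sham livers. Sham livers 1 and 2 exceeded every VAT removed liver and VAT removed liver 5 was below every sham liver, while the rest were interleaved. Means of 239 ± 83.3 CPM in VAT removed livers and 312 ± 131 CPM in sham livers gave a log2 difference of -0.39 ± 0.33 (SE; 95% interval -1.12 to 0.34, edgeR adjusted p = 0.742), the largest in size of the 8. It was -0.21 without VAT removed liver 5, -0.18 without sham liver 1, -0.26 without sham liver 2, and -0.66 (adjusted p = 0.492) without VAT removed liver 3 and sham liver 5, a pair set aside after the data were seen. Pck1 and G6pc, both repressed by insulin, had a Pearson's r of -0.32 on log2(CPM + 1) over the 10 livers (permutation p = 0.37, adjusted 0.678). Within groups r was -0.084 in VAT removed and -0.62 in sham livers (n = 5 each). Pck1 exceeded G6pc in CPM by 5.7-fold to 28.3-fold in VAT removed livers and by 3.98-fold to 17-fold in sham livers.

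Fbp1 (chromosome 13, 62864753 to 62888282, minus strand) encodes fructose-1,6-bisphosphatase, the enzyme that opposes phosphofructokinase. Its values were 1002, 836, 759, 1015 and 1039 CPM in VAT removed livers 1 to 5 and 917, 919.7, 798, 967 and 721 CPM in sham livers. VAT removed livers 1, 4 and 5 were above the highest sham liver, and VAT removed liver 3 and sham liver 5 were the lowest of their groups. The log2 difference was 0.11 ± 0.12 (SE; 95% interval -0.16 to 0.37, edgeR adjusted p = 0.82). It was 0.17 without VAT removed liver 3, 0.057 without VAT removed liver 5 and 0.044 without sham liver 5.

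Pcx (chromosome 19, 4510472 to 4621752, plus strand, with Lrfn4 on the opposite strand inside its bounds) encodes pyruvate carboxylase, which makes oxaloacetate in mitochondria. VAT removed livers had 1022, 1044, 920.2, 1129 and 1152 CPM, against 1109.8, 965, 1021, 1204 and 831 CPM in sham livers. The VAT removed values lay within the sham range in all 5 livers. The log2 difference was 0.038 ± 0.11 (SE; 95% interval -0.21 to 0.29, edgeR adjusted p = 0.945), and its sign turned without sham liver 5 or without VAT removed liver 5 (range -0.031 to 0.10 on leaving out single livers).

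Slc2a2 (chromosome 3, 28697903 to 28731359, plus strand, with 1700112D23Rik on the opposite strand) encodes GLUT2, the low-affinity transporter through which glucose crosses the hepatocyte membrane both ways. It stood at 367, 351, 288, 387 and 367 CPM in VAT removed livers and 376, 383, 389.8, 388 and 259 CPM in sham livers. Sham livers 1 to 4 lay close together and sham liver 5 well below them, and the lowest VAT removed liver was again library 3. The log2 difference was -0.029 ± 0.13 (SE; 95% interval -0.30 to 0.25, edgeR adjusted p = 0.962), and it turned positive without VAT removed liver 3 or sham liver 3 or 4 (range -0.13 to 0.034).

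Gckr (chromosome 5, 31297443 to 31327314, plus strand) encodes a regulatory protein of the hepatocyte that takes part in the control of glucose use. VAT removed livers had 198, 201, 189, 197 and 185 CPM, a narrow band, against 213, 152, 211, 214 and 155 CPM in sham livers. The SD was 6.54 CPM in VAT removed livers and 32.4 CPM in sham livers, where libraries 2 and 5 were low; this difference in spread was not tested. The log2 difference of the means was 0.039 ± 0.11 (SE; 95% interval -0.20 to 0.28, edgeR adjusted p = 0.942), and its sign turned without sham liver 2 or 5 (range -0.030 to 0.087).

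Pklr (chromosome 3, 89136142 to 89146784, plus strand, with Hcn3 on the opposite strand) encodes the pyruvate kinase of liver and red cells, the last step of glycolysis and a classic ChREBP target. It was at 355, 717, 225, 473 and 559 CPM in VAT removed livers 1 to 5, against 429, 360.2, 491, 490.0 and 201 CPM in sham livers. VAT removed livers 2 and 5 were above every sham liver, and the lowest values were in sham liver 5 and VAT removed liver 3. Group means of 466 ± 189 CPM after VAT removal and 394 ± 121 CPM after sham surgery gave a log2 difference of 0.24 ± 0.32 (SE; 95% interval -0.46 to 0.94, edgeR adjusted p = 0.852). It was 0.41 without VAT removed liver 3 but 0.031 without VAT removed liver 2 and 0.073 without sham liver 5.

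Ppargc1a (chromosome 5, 51454250 to 51567726, minus strand) encodes PGC-1 alpha, a coactivator that is induced by fasting and raises gluconeogenic and mitochondrial genes. It overlaps 4 unnamed gene models, Gm42614, Gm42615 and Gm43605 on the same strand and Gm42613 on the opposite strand. VAT removed livers had 31.8, 25.5, 22.3, 32.3 and 23 CPM, against 15.7, 17.6, 30.3, 26.7 and 20.3 CPM in sham livers. All 5 VAT removed livers were above the sham mean, yet sham livers 3 and 4 lay among them. Means of 27 ± 4.77 CPM in VAT removed and 22.1 ± 6.19 CPM in sham livers gave a log2 difference of 0.29 ± 0.19 (SE; 95% interval -0.12 to 0.70, edgeR adjusted p = 0.656), the smallest p of the 8. It ranged from 0.19 to 0.43 when each liver was left out in turn, lowest without sham liver 1, with adjusted p of at least 0.539.

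**Figure D2:**
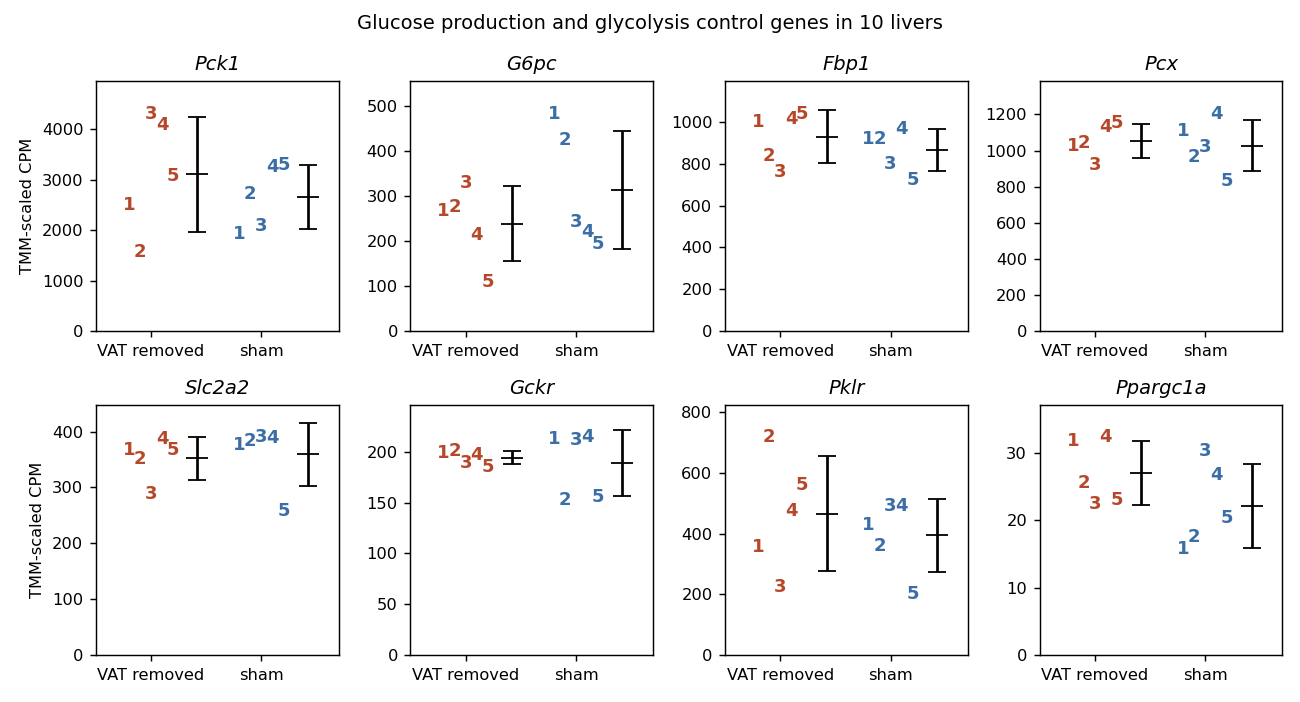
TMM-scaled CPM (y axis, from 0) of each gene in VAT removed and sham livers. Digits are library numbers and the bar beside them is mean ± SD (n = 5); the groups overlap for all 8 genes, and the digits 3 (VAT removed) and 5 (sham) lie lowest in their groups for Fbp1, Pcx, Slc2a2 and Pklr.

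The 8 genes differed in how much they varied between livers. Across all 10 livers the coefficient of variation was 40.1% for G6pc, 35.8% for Pklr, 31.2% for Pck1 and 23.6% for Ppargc1a. For Slc2a2, Fbp1, Gckr and Pcx it lay between 11% and 12.8%. The highest liver exceeded the lowest 4.45-fold for G6pc, 3.56-fold for Pklr and 2.73-fold for Pck1, against 1.41-fold for Gckr. The transporter, the regulatory protein and the enzymes Fbp1 and Pcx were the steadier members.

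Fbp1, Pcx, Slc2a2 and Pklr were low together in VAT removed liver 3 and sham liver 5. Over the 10 livers Pearson's r on log2(CPM + 1) was 0.809 for Pcx with Slc2a2 (permutation p = 0.00468, 0.0611 adjusted over the 28 pairs of members), with a Spearman's rho of 0.515 (permutation p = 0.134, adjusted 0.524). For Fbp1 with Pcx, r was 0.802 (permutation p = 0.0051, adjusted 0.0611) and rho 0.77 (permutation p = 0.0124, adjusted 0.348). Pcx with Pklr gave an r of 0.791 (permutation p = 0.00655, adjusted 0.0611) and a rho of 0.673 (permutation p = 0.0386, adjusted 0.524). Of the 28 pairs, 0 passed after adjustment. The 2 livers farthest from the median of the first gene were then left out. For Fbp1 these were VAT removed liver 3 and sham liver 5, and r became 0.50 with Pcx and 0.033 with Slc2a2, against 0.75 with Slc2a2 over all 10. For Pklr they were the same pair, and r with Slc2a2 became -0.47, against 0.77 over all 10, so that relation rests on those livers. For Pcx they were sham livers 4 and 5, and r became 0.58 with Slc2a2 and 0.69 with Pklr. The hepatocyte marker sum was also lowest in VAT removed liver 3 and sham liver 5, and its part in this was not tested. Pck1 did not share the dip: it was highest of all in VAT removed liver 3 and highest of its group in sham liver 5. Pck1 exceeded Pklr 19.2-fold in CPM in VAT removed liver 3 and 16.4-fold in sham liver 5, against 2.19-fold to 8.65-fold in the other 4 VAT removed livers and 4.24-fold to 7.53-fold in the other 4 sham livers.

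**Figure D3:**
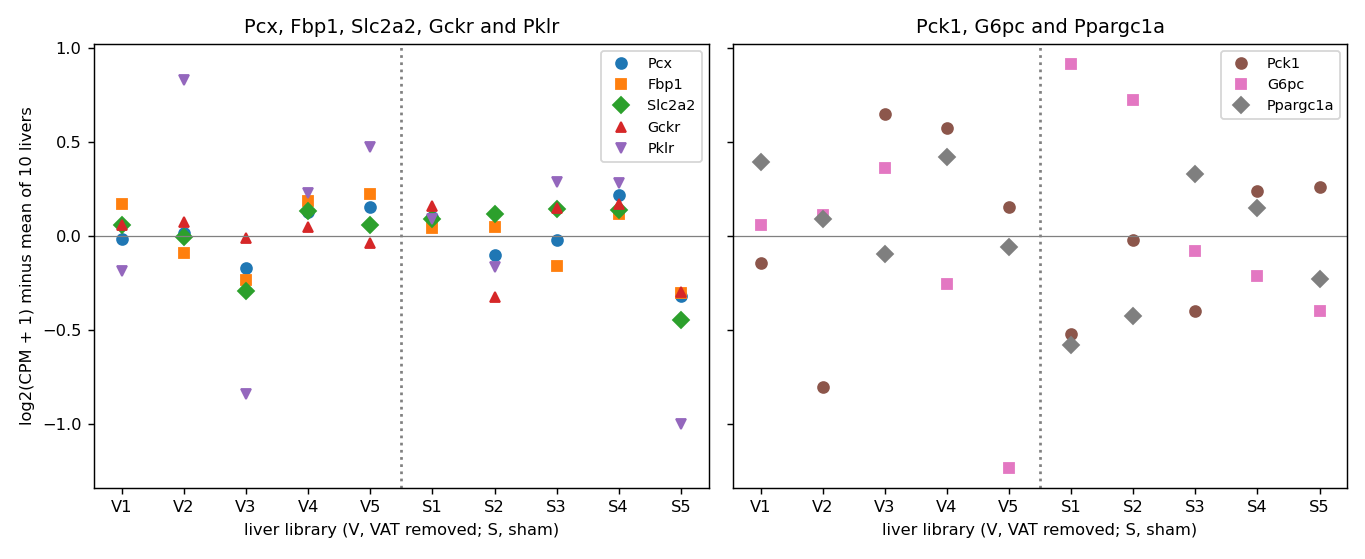
Each gene's log2(CPM + 1) minus its mean over the 10 livers (y axis), by library (x axis; V, VAT removed, S, sham). In V3 and S5 Pklr, Slc2a2, Fbp1 and Pcx lie below 0 (left panel) while Pck1 lies above 0 (right panel).

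The genes whose pattern over the 10 livers was most like each member's were found by Pearson's r on log2(CPM + 1) among 12590 liver genes, as a description of these libraries. For Pck1 they were Upp2 (0.97), Ctcfl (0.92), Rhbdd2 (0.91), where Upp2 is a uridine phosphorylase gene. For G6pc they were Fam135a (0.92), Mid1ip1 (0.91), Wwc1 (0.91), for Fbp1 Agmo (0.92), Sulf2 (0.91), Adcy6 (0.90) and for Ppargc1a Surf2 (0.90), Ldlrad4 (0.88), Tnks2 (0.88). For Pklr they were Gna14 (0.98), Hdac3 (0.94), Spp2 (0.93), where Gna14 encodes a G protein alpha subunit and Hdac3 a histone deacetylase. Pcx was followed by Lppos (0.95), Shmt1 (0.94), Rmnd5a (0.94), Gckr by Rfx4 (0.96), Vps13d (0.94), C1rl (0.93) and Slc2a2 by Adra1b (0.94), Slc25a10 (0.93), Sdhd (0.92), where Adra1b encodes an adrenergic receptor. No member was among the 3 closest to another. Between 1 and 21 genes reached an r over 0.9 with a given member, and the number that would do so by chance was not worked out.

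Genes that work beside the members in liver were read from 5 lists. Of the 21 tested partners of gluconeogenesis (transaminases, malate and glycerol enzymes, mitochondrial carriers), 0 were called in edgeR, 9 were higher and 12 lower in VAT removed livers, with a median log2 difference of -0.049. Smallest in p was Gpd1, the cytosolic glycerol 3-phosphate dehydrogenase that links glycerol to glucose and to triglyceride, with 377, 308, 326, 254 and 313 CPM in VAT removed livers and 509, 377, 454, 519 and 359 CPM in sham livers. All 5 VAT removed livers were below the sham mean, and VAT removed liver 1 alone lay within the sham range. The log2 difference was -0.49 ± 0.13 (SE; 95% interval -0.78 to -0.20, edgeR adjusted p = 0.281). DESeq2 called Gpd1 at an adjusted p of 0.0358. Mdh2, mitochondrial malate dehydrogenase, had a log2 difference of -0.16 ± 0.078 (edgeR adjusted p = 0.549).

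Of 28 glycolysis genes tested, including pyruvate dehydrogenase and its kinases, 9 were higher, 19 lower and 0 called, with a median of -0.089. Pdhb, a subunit of pyruvate dehydrogenase, averaged 72.1 ± 6.88 CPM in VAT removed livers and 88.4 ± 10.4 CPM in sham livers; the log2 difference was -0.29 ± 0.094 (SE; 95% interval -0.50 to -0.088, edgeR adjusted p = 0.345). Pdk2, a kinase that shuts that complex off, had a log2 difference of 0.25 ± 0.11 (edgeR adjusted p = 0.469). Of 12 glycogen genes, 4 were higher, 8 lower and 0 called, with a median of -0.036. Ppp1r3g, a glycogen-targeting subunit of protein phosphatase that is induced by fasting, had a log2 difference of 0.90 ± 0.42, and Gbe1, the branching enzyme, by -0.23 ± 0.13 (edgeR adjusted p = 0.522 and 0.616). Ppp1r3g was at 0.54 without VAT removed liver 4, and Gbe1 at -0.15 without VAT removed liver 3.

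Of 22 regulators of these genes, 20 had positive and 2 negative log2 differences, where 52.2% of all genes tested were positive. The median was 0.12 and 0 were called in edgeR, while 2 had an unadjusted p under 0.05, a rule met by 9.9% of all genes. Their sum ran from 2817 to 4070 CPM in VAT removed livers and 2784 to 3206 CPM in sham livers. The list was chosen with earlier results of these data known and its genes share the same livers, so the count of directions is not a test. Onecut1, which encodes the liver factor HNF6, had 33, 17.3, 64.1, 29.1 and 36.9 CPM in VAT removed livers and 21.3, 21.8, 8.23, 9.31 and 8.93 CPM in sham livers. VAT removed liver 2 lay within the sham range and the other 4 above it, with library 3 the highest. Its log2 difference was 1.37 ± 0.40 (SE; 95% interval 0.49 to 2.25, edgeR adjusted p = 0.31), with a DESeq2 adjusted p of 0.0215, and was 1.06 without VAT removed liver 3. Foxa2, a forkhead factor of fasting liver, averaged 36.6 ± 5.1 CPM in VAT removed livers and 29 ± 4.11 CPM in sham livers; the log2 difference was 0.33 ± 0.12 (SE; 95% interval 0.078 to 0.59, edgeR adjusted p = 0.391), or 0.22 without VAT removed liver 3 and sham liver 5. Among 13 genes that respond to fasting or feeding, 8 were higher, 5 lower and 0 called, with a median of 0.14. Txnip, which glucose induces, had a log2 difference of 0.65 ± 0.28, and Per1, a clock gene that glucocorticoid induces, by 0.46 ± 0.22 (edgeR adjusted p = 0.48 and 0.535). Sham liver 1 had 40.7 CPM of Per1, against 94.6 to 117 CPM in the other 4 sham livers, and without it the log2 difference of Per1 was 0.27.

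**Figure D4:**
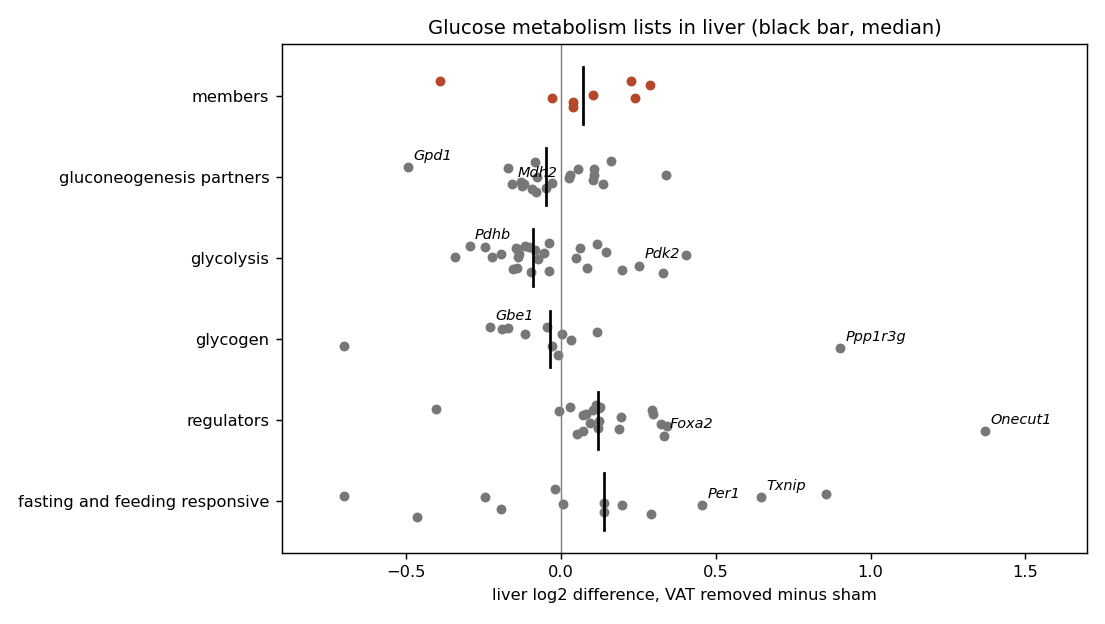
Liver log2 differences (x axis, VAT removed minus sham) of the members and of 5 lists of related genes, each dot 1 gene (members in red) and each black bar the median. The named genes have the smallest unadjusted p of their list; Onecut1 lies farthest to the right, and Gpd1 lies farthest to the left of the gluconeogenesis partners.

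Paralogs of the members were also measured. G6pc3, the ubiquitous glucose-6-phosphatase, averaged 3.39 ± 0.295 RPKM in VAT removed and 3.14 ± 0.257 RPKM in sham livers, and Pck2, the mitochondrial carboxykinase, 0.93 ± 0.263 and 0.983 ± 0.276 RPKM. Pkm, the pyruvate kinase of muscle and other tissues, averaged 7.62 ± 2.18 RPKM in VAT removed livers and 7.82 ± 2.74 RPKM in sham livers. Ppargc1b, which encodes a coactivator related to PGC-1 alpha, averaged 7.7 ± 1.61 RPKM in VAT removed and 6.14 ± 1.21 RPKM in sham livers, above Ppargc1a in both groups, with a log2 difference of 0.32 ± 0.17 (SE; 95% interval -0.037 to 0.69, edgeR adjusted p = 0.555). Slc2a1 and Slc2a4, which encode the transporters GLUT1 and GLUT4, averaged 3.63 ± 0.831 and 0.733 ± 0.233 RPKM in VAT removed livers, against 4.58 ± 1.45 and 0.518 ± 0.362 RPKM in sham livers.

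In SAT only Pck1, Pcx and Ppargc1a passed the filter on low counts. The other 5 genes reached at most 16 counts in any SAT library (G6pc in VAT removed SAT 3), and no difference is read from them. Liver and SAT were scaled separately, so levels set across them are approximate. SAT had Pcx at 224 ± 65.2 RPKM in VAT removed and 233 ± 77.8 RPKM in sham SAT, close to its level in liver, and Pck1 at 286 ± 118 RPKM in VAT removed and 240.3 ± 105 RPKM in sham SAT, below its level in liver. Ppargc1a averaged 1.22 ± 0.239 RPKM in VAT removed SAT and 1.18 ± 0.365 RPKM in sham SAT. The paralogs were ordered otherwise than in liver, with Pkm at 86.5 ± 43.9 and 66.6 ± 8.28 RPKM and Slc2a4 at 42 ± 6.74 and 38.9 ± 17.6 RPKM in VAT removed and sham SAT. The VAT removed means include library 2, where skeletal muscle markers summed to 22917 CPM, and the part of muscle in them was not tested.

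The SAT comparison asks whether removing VAT changes the members expressed in subcutaneous fat, a depot left in place. Of the 3 genes tested, edgeR and DESeq2 each called 0, and 0 had an unadjusted p under 0.05, where over all 18530 genes tested edgeR called 0%, an unadjusted p under 0.05 was reached by 10.6% (4.38% higher, 6.27% lower), and DESeq2 called 0.847%. VAT removed and sham SAT overlapped for all 3, where 1.44% of all genes tested did not. Pck1 was at 992, 589, 854, 1652 and 808 CPM in VAT removed SAT 1 to 5, against 881, 1241, 498, 416 and 1084 CPM in sham SAT. VAT removed SAT 4 was the highest, and sham SAT 3 and 4 were the lowest. The log2 difference was 0.25 ± 0.35 (SE; 95% interval -0.52 to 1.01, edgeR adjusted p = 0.834), and it was -0.13 without sham SAT 3 and 4 and -0.022 without VAT removed SAT 4 (range -0.022 to 0.44 on leaving out single libraries).

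Pcx, at 772, 1119, 1502, 760.4 and 1173 CPM in VAT removed SAT and 1229, 1423, 668, 763 and 1455 CPM in sham SAT, differed by -0.056 ± 0.27 (SE; 95% interval -0.65 to 0.53, edgeR adjusted p = 0.958) on the log2 scale. Without sham SAT 3 and 4 the difference was -0.37 (edgeR adjusted p = 0.64), and its sign turned on leaving out VAT removed SAT 1 or 4 or sham SAT 2 or 5 (range -0.22 to 0.063). Both groups held low and high libraries, with libraries 1 and 4 low in VAT removed SAT and 3 and 4 low in sham SAT. Ppargc1a had 7.33, 9.48, 8.5, 9.16 and 5.61 CPM in VAT removed SAT and 9.49, 10.1, 6.39, 4.31 and 8.58 CPM in sham SAT, a log2 difference of 0.042 ± 0.23 (SE; 95% interval -0.48 to 0.56, edgeR adjusted p = 0.966), or -0.23 without sham SAT 3 and 4 (range -0.12 to 0.15 on leaving out single libraries). The adipocyte marker sum was lowest in sham SAT 3 and 4, the 2 libraries rich in lymphocyte genes, at 8279 and 7791 CPM. It ran from 11143 to 15927 CPM in VAT removed SAT and 13656 to 17039 CPM in the other 3 sham libraries. In VAT removed SAT, Pcx was highest in library 3, which also had the highest sum. Library 4, highest for Pck1, had a sum of 12012 CPM, and library 5, lowest for Ppargc1a, had 14305 CPM. All 5 adipocyte markers were detected in every SAT library, and their part in the levels of Pck1, Pcx and Ppargc1a was not tested.

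**Figure D5:**
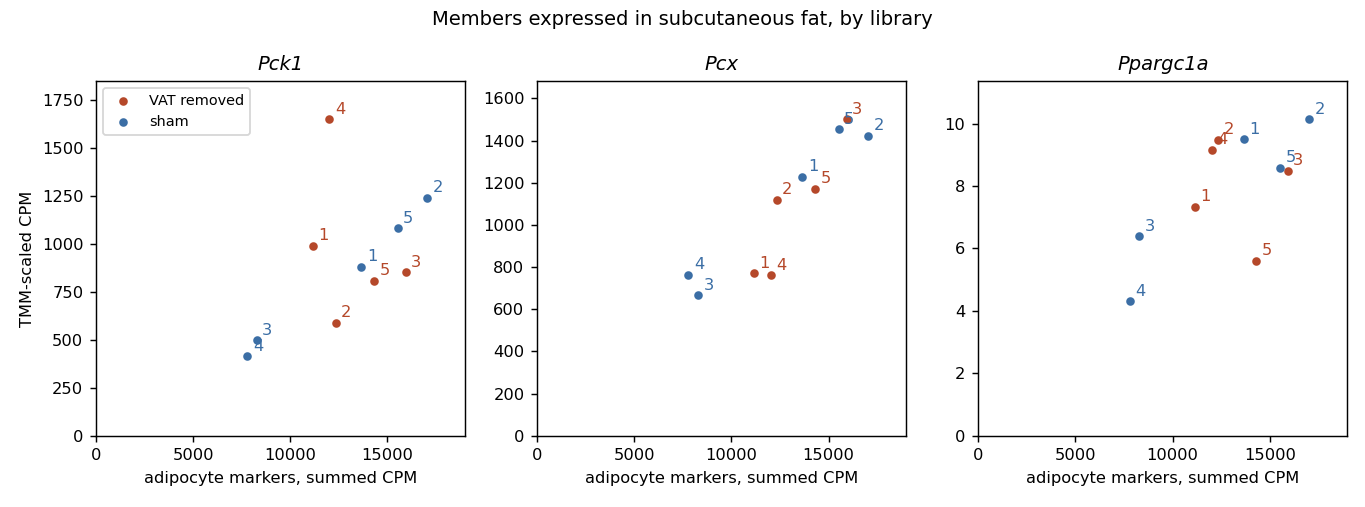
TMM-scaled CPM of Pck1, Pcx and Ppargc1a (y axes, from 0) against the summed CPM of 5 adipocyte markers (x axes) in SAT, digits giving library numbers. Sham libraries 3 and 4 lie lowest on the x axis, between 7791 and 8279 CPM, and are the lowest pair for Pck1.

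Among related genes in SAT, edgeR called 0 of 21 gluconeogenesis partners and 0 of 27 glycolysis genes, with medians of 0.057 and 0.089. It also called 0 of 11 glycogen genes, 0 of 18 regulators, 0 of 12 fasting and feeding genes and 0 of 8 paralogs there. Fbp2, the bisphosphatase of muscle, and Pfkm, the phosphofructokinase of muscle, had log2 differences of 1.36 ± 0.65 and 1.88 ± 0.94 (edgeR adjusted p = 0.486 and 0.504). Pfkm was at 438 CPM in VAT removed SAT 2, where muscle markers summed to 22917 CPM, while the remaining 4 VAT removed libraries lay between 23.7 and 45.6 CPM. Without that library the differences were 0.38 for Fbp2 and 0.017 for Pfkm. Slc37a4, the transporter that brings glucose 6-phosphate to glucose-6-phosphatase, had a log2 difference of 0.34 ± 0.21, or 0.062 without it. Aldoc, an aldolase gene at most 1.21 CPM in SAT, had a log2 difference of -1.20 ± 0.55, and Pck2 by -0.17 ± 0.11 (edgeR adjusted p = 0.562, 0.474 and 0.598 for these 3). Without sham SAT 3 and 4, rich in lymphocyte genes, Aldoc was at -0.34 and Pck2 at -0.066, and without sham SAT 3 alone Aldoc was at -0.73.

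Whether liver and SAT responded differently was tested in 1 fit of all 20 libraries. The response in liver minus that in SAT was -0.021 ± 0.46 on the log2 scale for Pck1 (95% interval -0.99 to 0.95), 0.097 ± 0.31 for Pcx (-0.55 to 0.74) and 0.25 ± 0.31 for Ppargc1a (-0.41 to 0.90), with edgeR adjusted p of 1, 0.949 and 0.831. This fit called 0% of 19954 genes, 10.1% had an unadjusted p under 0.05 (6.51% higher, 3.61% lower), and DESeq2 called 0.621%. Without sham SAT 3 and 4 the differences were 0.37 for Pck1, 0.42 for Pcx and 0.54 for Ppargc1a, with edgeR adjusted p of 0.931, 0.831 and 0.775. The fit treats liver and SAT libraries as separate mice.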

How the data were processed

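Counts per gene symbol are as the authors deposited them, without normalization. Per the submitters' processing notes, STAR 2.5.1a, featureCounts 1.46 and the GRCm38 build were used. No source used here gives the annotation, the strand setting or the handling of multiply mapping reads. Reads of overlapping neighbours, on either strand, cannot be told apart. From 40757 entries, 317 exact repeats were dropped. Groups came from sample titles. Each tissue was fitted in edgeR 4.0.16 (R 4.3.3) with filterByExpr, TMM factors and the robust quasi-likelihood F-test, with Benjamini-Hochberg adjusted p over all genes tested and a threshold of 0.05. SE and 95% intervals derive from the F statistic. The response of the tissues was compared in 1 fit of 4 group means. Correlations used 100000 permutations. The script was tested on simulated counts with known changes. Alternatives were DESeq2 1.42.0, limma-voom 3.58.1, RLE factors, other filters, a block for library number, and leave-one-out fits. The members and lists were chosen with earlier results of these data known. Named besides the 8 members were the 2 genes of smallest unadjusted p per list (in SAT for 3 lists), the paralogs, and the 3 genes most like each member; 1 listed gene is not reported here. The gene models of GENCODE M21 and RefSeq are of GRCm38.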

Additional observations from a re-analysis of the deposited data

Results flagged for a closer look

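In groups of 5 libraries, 52 gene and group combinations were screened for a single library far from the other 4, and 8 were found. Chance gives about 1 in 20 for independent values. Here some genes were screened for their small p in these data, and 6 of the 8 repeat the same genes, so the count is not set against chance. In liver, Slc2a2 was at 259 CPM in sham liver 5 against 376 to 389.8 CPM in the other 4 sham livers, and Per1 at 40.7 CPM in sham liver 1 against 94.6 to 117 CPM. The other 6 were all in SAT library 2. In VAT removed SAT 2 they were Fbp2 at 12.1, Slc37a4 at 24.4 and Pfkm at 438 CPM, against at most 2.74, 13.4 and 45.6 CPM in the rest of that group. In sham SAT 2 they were Fbp2 at 3.28, Slc37a4 at 12.4 and Pfkm at 71.9 CPM, against at most 1.39, 11.5 and 25.4 CPM. Skeletal muscle markers summed to 22917 CPM in VAT removed SAT 2 and 1856 CPM in sham SAT 2, the highest of their groups, and the part of muscle in these values was not tested.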

How the results depend on the processing

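The count of members called was 0 in liver and in SAT under every alternative run. Over all genes edgeR called 0 in liver, against 223 with DESeq2, 3 with limma-voom, 3 with no low-count filter, 3 with at least 1 CPM in 5 libraries and 40 without VAT removed liver 3 and sham liver 5 (set aside after seeing the data). In SAT it called 0 against 157 with DESeq2, and for the difference between tissues 0 against 124. Leaving out single libraries gave 0 to 53 calls in liver, 0 to 1 in SAT and 0 to 3 for the difference between tissues. DESeq2 called Gpd1 and Onecut1 in liver, and neither passed in edgeR under any alternative.

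Some signs turned. In liver, leaving out single libraries moved Pcx over -0.031 to 0.10, Gckr over -0.030 to 0.087 and Slc2a2 over -0.13 to 0.034, and Gckr was -0.017 without VAT removed liver 3 and sham liver 5. In SAT the ranges were -0.022 to 0.44 for Pck1, -0.22 to 0.063 for Pcx and -0.12 to 0.15 for Ppargc1a. Without sham SAT 3 and 4, Pck1 was -0.13, Pcx -0.37 and Ppargc1a -0.23. With VAT removed SAT 2 also left out (chosen after seeing the data), Pck1 was 0.0087, Pcx -0.38, Ppargc1a -0.30, Fbp2 0.031 and Pfkm -0.34. The difference between tissues ranged over -0.22 to 0.26 for Pck1 and -0.018 to 0.25 for Pcx, and without sham SAT 3 and 4 was 0.37 for Pck1, 0.42 for Pcx and 0.54 for Ppargc1a. With limma-voom Pfkm in SAT was 0.97, and with the replicate block 0.98. The cause of these moves was not tested.

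The labels do not state whether library numbers pair the samples, and the correlations given here do not settle it. Same-numbered VAT removed and sham livers had correlations of their deviations from group means between -0.091 and 0.249, with 4 of 5 closest to their own number. In SAT these lay between -0.302 and 0.385, with 2 of 5. Between liver and SAT they lay between 0.054 and 0.143 after VAT removal, with 3 of 5, and between -0.208 and 0.110 after sham surgery, with 0 of 5. With library number as a replicate block edgeR called 0 genes in liver, 0 in SAT and 0 for the difference between tissues, and the Pck1 difference between tissues was 0.052.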
